A study of Mus musculus with 6 samples.

Results

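The genes described here are 10 NF-kB subunits and feedback regulators (Nfkb1, Nfkb2, Rela, Relb, Nfkbia, Nfkbie, Nfkbiz, Tnfaip3, Birc3 and Traf1), taken by symbol from a table of 52997 gene symbols. All 10 were in the table and all 10 passed the filter on low counts, which kept 10823 genes. They were measured by RNA sequencing in mesenchymal stromal cells (fibroblast-like cells of connective tissue) of C57BL/6 mice aged 8 weeks, and the labels name no treatment or genetic change. One group of 3 libraries came from hindlimb skeletal muscle. The other group of 3 came from lymph nodes, in which inguinal, axillary, brachial and cervical nodes were combined. Each library was made from 1000 cells that were sorted in 2 rounds, and the sources used here do not give the sort markers. The count table numbers the muscle libraries 2, 3 and 4 and the lymph node libraries 1, 2 and 3, and libraries are named by these numbers. Of the muscle samples, 2 are titled with the same number and a letter, so separate animals are not established for them, and p-values measure the spread between libraries. The columns do not tell which libraries these are, so each pair of muscle libraries was also summed and tested as 1.

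NF-kB is a family of transcription factor dimers that switches on inflammatory, survival and stromal genes. In resting cells, proteins of the IkB family hold the dimers in the cytoplasm. Receptors for TNF, interleukin-1 and microbial products activate the IkB kinase, IkB is degraded, and the dimers enter the nucleus. Several of the genes they switch on encode their own inhibitors, so transcripts of the feedback regulators change quickly with pathway activity, whereas the activity of the subunits is set mostly on the protein. In lymph nodes, lymphotoxin from lymphocytes drives a slower branch of the pathway through Nfkb2 and Relb in reticular stromal cells.

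Total counts per library were between 415460 and 2397134, the lowest being that of muscle library 4. All 11 fibroblast markers examined (among them Pdgfra, Pdpn, Col1a1 and Dcn) were detected in every library, with sums between 67509 and 105104 CPM (counts scaled to library size by the TMM method). Pdgfra, Pdgfrb, Ly6a and Cd34 were lower in muscle library 4 (651, 188, 495 and 1438 CPM) than in every other library. In muscle libraries 2 and 3 Pdgfra was at 1193 and 1331 CPM. Lum was higher in muscle library 4 than in libraries 2 and 3, and Col1a1, Col3a1 and Thy1 lay between them. The 6 lymph node reticular cell markers summed to between 409 and 470.3 CPM in lymph node and to between 37.6 and 79.1 CPM in muscle. Most of that lymph node sum was the B cell chemokine Cxcl13, at 370.0, 341 and 410.2 CPM against at most 14.8 CPM in muscle. Ccl21a had no count in any library. Ccl19 reached at most 3.44 CPM in lymph node and had no count in muscle. Ltbr was at 52.7, 44.6 and 24.2 CPM in muscle libraries 2, 3 and 4 and at 53.3 to 57.6 CPM in lymph node. Il7 and Bst1 did not follow the sum. Il7 was at 10.02, 13.8 and 2.69 CPM in muscle and at most 6.87 CPM in lymph node. Bst1 was higher in every muscle library, at 1.58, 0.768 and 8.06 CPM against at most 0.455 CPM. Muscle library 4 stood apart from muscle libraries 2 and 3 (Pearson r = 0.705 and 0.702 across genes, which are not independent, against 0.952 between libraries 2 and 3). It held blood cell transcripts: summed T cell markers (8 of 8 detected) reached 446 CPM there and at most 11.1 CPM elsewhere. Summed B cell markers (6 of 6 detected) reached 1817 CPM, and elsewhere at most 255 CPM (in lymph node library 3). Summed myeloid markers reached 761 CPM, and elsewhere at most 29.6 CPM, with Cd68, Csf1r and Itgam at 0 and the pan-leukocyte gene Ptprc alone at 589 CPM. Summed endothelial markers were also high there, at 118 CPM and elsewhere at most 17.7 CPM. Only Pecam1, Prox1 and Lyve1 were raised (59.1, 29.6 and 24.2 CPM). Kdr and Emcn were at 2.69 CPM each, and Cdh5 and Tie1 at 0. Muscle fibre markers were low there, at 5.38 CPM against 58.5 and 71.5 CPM in muscle libraries 2 and 3. Results that rest on muscle library 4 are given with and without it. In sorted bulk material, fewer cells of a type and less RNA per cell cannot be told apart.

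RefSeq promoter windows (GRCm38.p6) were found for 7 of the 10 genes, and the 250 bases before each start were searched on both strands. The searches were for the kappaB consensus of 10 bases, the site NF-kB dimers bind, and for the word GGGANTTCC, which can overlap it. Of all 32851 windows of this length, 3.90% held the consensus and 1.43% held the word. The consensus was in 6 of the 10 windows of these genes, which belong to 4 genes: Nfkbia, Nfkb2 (3 starts), Nfkbie and Tnfaip3 (1 of 2 starts). It was in no window of Rela, Birc3 or Traf1. The word GGGANTTCC was in 1 window of Nfkb2 and 1 of Tnfaip3. The upstream sequences of Nfkbia, the inhibitor that was lower in muscle, and Traf1, the only member that was higher, are shown because these 2 genes differed in opposite directions. Nfkbia lies at chr12:55489410-55492647 on the minus strand and its window at chr12:55492648-55492897. Traf1 lies at chr2:34941750-34961772 on the minus strand and its window at chr2:34961773-34962022. Both are printed 5′ to 3′ in the direction of the gene, and capitals mark a match to the kappaB consensus.
Nfkbia: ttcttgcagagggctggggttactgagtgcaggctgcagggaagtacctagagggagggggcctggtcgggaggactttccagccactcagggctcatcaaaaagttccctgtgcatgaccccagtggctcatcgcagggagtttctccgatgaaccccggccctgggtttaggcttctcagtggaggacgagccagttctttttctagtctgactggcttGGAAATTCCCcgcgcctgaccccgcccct
Traf1: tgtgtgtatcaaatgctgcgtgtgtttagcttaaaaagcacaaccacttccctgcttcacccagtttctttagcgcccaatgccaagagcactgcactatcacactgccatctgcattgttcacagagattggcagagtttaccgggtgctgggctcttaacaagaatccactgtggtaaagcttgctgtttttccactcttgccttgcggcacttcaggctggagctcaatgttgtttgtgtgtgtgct
The Nfkbia letters GGAAATTCCC lie from 29 to 20 bases before the start and match the consensus when read on the opposite strand. In Tnfaip3 the letters GGAAATCCCC, also a match on the opposite strand, lie from 12 to 3 bases before the upstream start. In Nfkb2 the palindrome GGGAATTCCC lies from 39 to 30 bases before the most upstream start. A match of letters describes the window and is not evidence of binding.

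The comparison of the tissues asked how these genes differ between muscle and lymph node stromal cells. Nfkbia and Nfkbiz, an inhibitor and a nuclear cofactor of NF-kB, were 6.94-fold and 12.2-fold lower in muscle, and the ubiquitin ligase Birc3 was 3.17-fold lower. The adaptor Traf1, which passed the filter only through its muscle libraries, was 10.4-fold higher in muscle. The 4 subunit genes were not called different. In all, 3 members fell and 1 rose in muscle at an adjusted p under 0.05 (edgeR quasi-likelihood test, Benjamini-Hochberg over all genes tested), where 2.86% of all tested genes were lower and 1.46% higher. Without muscle library 4, 5 members fell and 1 rose, against 7.58% and 4.79% of all tested genes. The members' median log2 fold change (muscle over lymph node) was -0.67, beside 0.02 over all genes tested, and was -0.99 without muscle library 4. In 4 members the lymph node libraries all lay above the muscle libraries, and in 1 member below them. Over all tested genes these arrangements were found in 13.7% and 9.93%.

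**Figure D1:**
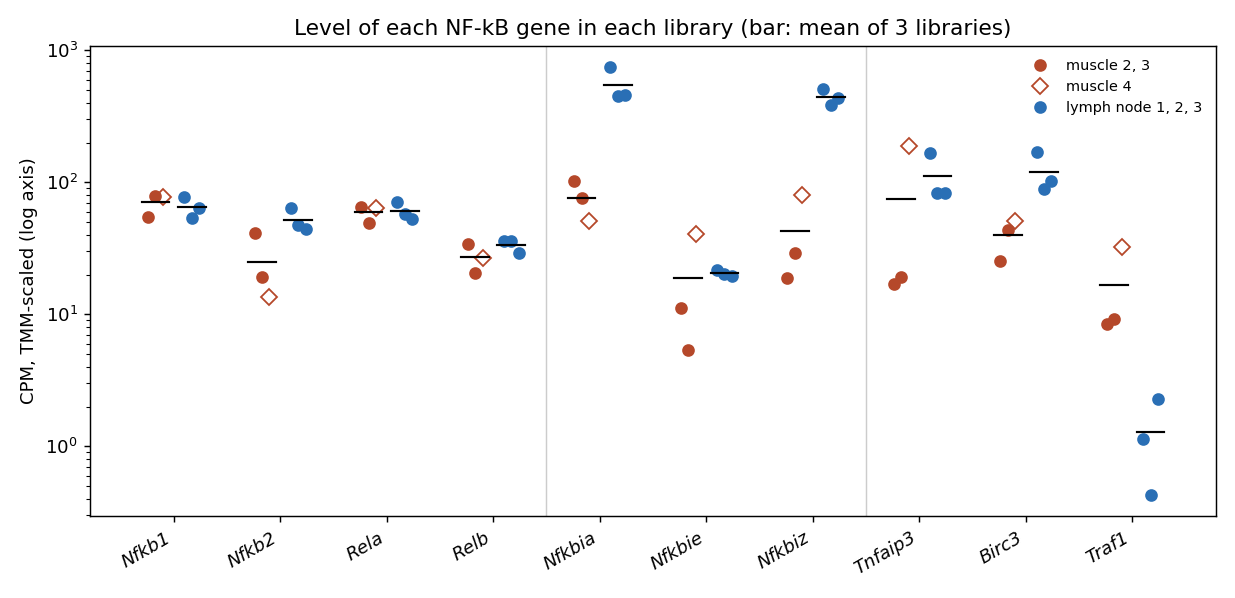
Level of each of the 10 genes in each library, in TMM-scaled CPM on a log axis. Points are libraries, the open diamond is muscle library 4 and bars are means of 3 libraries; Nfkbia and Nfkbiz separate the tissues in every library, Rela and Nfkb1 do not, and the diamond lies far above the other muscle points for Tnfaip3.

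Among the subunits, Rela, which carries the main transactivation domain of the classical dimer, measured 65.4, 49.2 and 64.5 CPM in muscle libraries 2, 3 and 4. In lymph node libraries 1, 2 and 3 it measured 70.8, 57.6 and 52.4 CPM. The tissues overlapped, and the log2 fold change was -0.02 ± 0.23 (SE, edgeR adjusted p = 0.985). Nfkb1, the DNA-binding partner of Rela, which also acts as an inhibitor in its precursor form, measured 54.3, 79.1 and 78.0 CPM in muscle. Its lymph node values were 77.7, 54.1 and 64.2 CPM, and the log2 fold change was 0.09 ± 0.24 (edgeR adjusted p = 0.92). The sign of both log2 fold changes turned when muscle library 3 was left out. Rela lies at chr19:5637483-5648130 and Nfkb1 at chr3:135584655-135691547 (GRCm38, as for all positions here).

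The subunits of the lymphotoxin-driven branch gave lower values in muscle, without passing the threshold. Nfkb2 measured 41.7, 19.2 and 13.4 CPM in muscle and 64.0, 47.3 and 44.6 CPM in lymph node. Every muscle value lay below every lymph node value, but the muscle values were spread over a wide range, and muscle library 2 lay close to lymph node library 3. The log2 fold change was -0.92 ± 0.37 (edgeR unadjusted p = 0.0329, adjusted p = 0.268). It was -0.72 ± 0.28 without muscle library 4 (edgeR adjusted p = 0.131) and -1.60 without muscle library 2. Nfkb2 is uncertain as a single gene because 16.8% of its 25-base words also occur in transcripts of other genes. Of its exon bases, 6.52% overlap the antisense gene Psd and 11.6% an antisense long noncoding RNA, and the strand setting of the counting is not given. Relb, the transactivating partner of Nfkb2, measured 34.3, 20.7 and 26.9 CPM in muscle and 36.0, 35.7 and 29.1 CPM in lymph node. Its tissues overlapped (-0.28 ± 0.29, edgeR adjusted p = 0.736). Nfkb2 lies at chr19:46304320-46312385 and Relb at chr7:19606217-19629438. Across edgeR, DESeq2 and limma-voom, 0 of the 4 subunits were called. At an edgeR unadjusted p under 0.05 there was 1, Nfkb2. Without muscle library 4 the log2 fold changes of Rela, Nfkb1 and Relb were -0.06, 0.01 and -0.26, and none was called.

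With all libraries, the largest decreases were those of 2 IkB family genes. Nfkbia encodes IkB-alpha, the inhibitor that is degraded first on stimulation and resynthesised under NF-kB control. It measured 102, 76.1 and 51.1 CPM in muscle libraries 2, 3 and 4, from 194, 99 and 19 counts. In lymph node libraries 1, 2 and 3 it measured 745, 448 and 463 CPM, from 1304, 1042 and 1016 counts. The highest muscle value lay far below the lowest lymph node value, and lymph node library 1 was above the other lymph node libraries. The log2 fold change was -2.79 ± 0.30 (edgeR adjusted p = 0.00114), and -2.62 ± 0.24 without muscle library 4 (edgeR adjusted p = 3.74e-06). It stayed under the threshold in all 17 alternative fits, with log2 fold changes between -3.09 and -2.52.

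Nfkbiz, at chr16:55811375-55838899, encodes IkB-zeta, which acts in the nucleus as a cofactor for a delayed set of NF-kB targets that includes Il6. It measured 19.0, 29.2 and 80.6 CPM in muscle, against 512, 383 and 439 CPM in lymph node. The groups did not overlap, and muscle library 4 was the highest of the muscle libraries. The log2 fold change was -3.61 ± 0.45 (edgeR adjusted p = 0.00224) and widened to -4.24 ± 0.22 without muscle library 4, a 19.0-fold lower level (edgeR adjusted p = 2.36e-08). It too stayed under the threshold in all 17 alternative fits.

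Nfkbie, which encodes the related cytoplasmic inhibitor IkB-epsilon, measured 11.1, 5.38 and 40.3 CPM in muscle and 21.7, 20.2 and 19.6 CPM in lymph node. The lymph node values were even, while the muscle values lay on both sides of them, with muscle library 4 highest. With all libraries the log2 fold change was -0.48 ± 0.60 (edgeR adjusted p = 0.794). Without muscle library 4 the groups did not overlap and Nfkbie fell by 1.25 ± 0.35 on the log2 scale (edgeR adjusted p = 0.031). That fit rests on 28 muscle counts in 2 libraries. Nfkbie lies at chr17:45555703-45563169.

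Because a ratio of 2 genes in 1 library does not depend on its depth or scaling, Nfkbia was also set against Rela. The ratio of their CPM was 1.56, 1.55 and 0.792 in muscle libraries 2, 3 and 4 and 10.5, 7.78 and 8.83 in lymph node libraries 1, 2 and 3. Every lymph node ratio was above every muscle ratio, and muscle library 4 was the lowest of all. The ratio is not scaled to gene length, so it compares libraries and not the levels of both genes. The log2 ratio was 0.31 ± 0.56 in muscle and 3.17 ± 0.22 in lymph node (SD, n = 3 each), a difference of -2.85. The exact two-sided permutation test gave p = 0.1, the smallest value that 3 against 3 libraries allow.

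**Figure D2:**
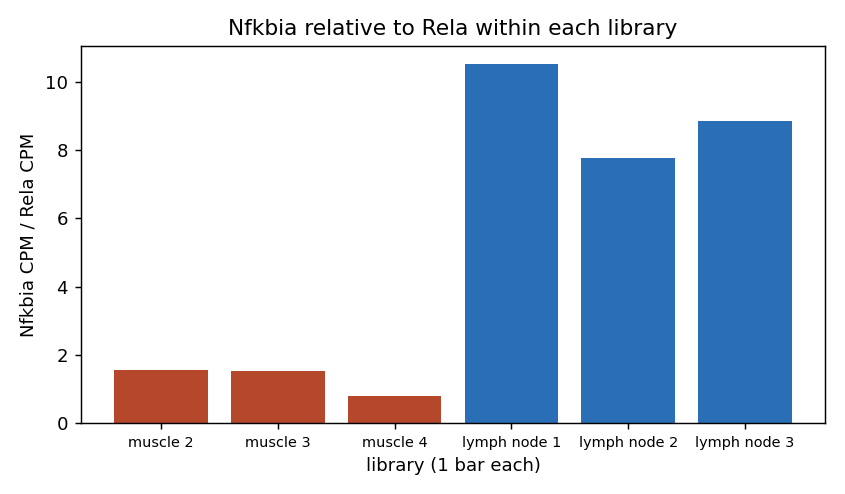
Nfkbia CPM divided by Rela CPM, 1 bar for each library, with the axis starting at 0. Muscle bars reach at most 1.56 and lymph node bars start at 7.78.

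The 3 regulators that act at receptor complexes gave 3 different results. Birc3, a ubiquitin ligase of TNF receptor complexes that also restrains the kinase encoded by Map3k14, measured 25.3, 43.8 and 51.1 CPM in muscle and 171, 88.5 and 102 CPM in lymph node. The groups did not overlap, and lymph node library 1 was the highest. The log2 fold change was -1.66 ± 0.35 (edgeR adjusted p = 0.0273), and -1.84 ± 0.30 without muscle library 4 (edgeR adjusted p = 7.52e-04). The call was lost when any 1 of muscle libraries 2 and 3 or lymph node libraries 1, 2 and 3 was left out (edgeR adjusted p up to 0.115). It was also lost when muscle libraries 2 and 3 were summed (edgeR adjusted p = 0.0893). Other genes hold 13.9% of its 25-base words. Birc3 lies at chr9:7848699-7873186. Its neighbour and close relative Birc2, at chr9:7818227-7837064, was not called, at 63.3, 61.5 and 110.2 CPM in muscle and 71.4, 69.6 and 67.8 CPM in lymph node (edgeR adjusted p = 0.91).

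Tnfaip3 encodes a ubiquitin-editing enzyme that shuts off signalling from the same complexes, and its result, like that of Nfkbie, turned on muscle library 4. It measured 16.9 and 19.2 CPM in muscle libraries 2 and 3 but 188 CPM in muscle library 4. In lymph node libraries 1, 2 and 3 it measured 168, 82.5 and 83.3 CPM. Muscle library 4 was thus above all lymph node libraries and the other muscle libraries below all of them. With all libraries the log2 fold change was -0.87 ± 0.81 (edgeR adjusted p = 0.708). Without muscle library 4 it fell by 2.63 ± 0.34 on the log2 scale, a 6.18-fold lower level in muscle (edgeR adjusted p = 1.04e-04). Tnfaip3 lies at chr10:19000910-19015657. The value in muscle library 4 moved with the blood cell markers and the raised endothelial markers given above, and their part in it was not tested.

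Traf1, an adaptor that pairs with Traf2 and is itself an NF-kB target, was the only member that rose. It measured 8.44, 9.22 and 32.3 CPM in muscle and 1.14, 0.43 and 2.28 CPM in lymph node. Even the lowest muscle value was above the highest lymph node value, although lymph node counts were only 2, 1 and 5. Traf1 passed the low-count filter only through its muscle libraries, so its place among tested genes depended on the group where it was high. The log2 fold change was 3.38 ± 0.78 (edgeR adjusted p = 0.0447). Without muscle library 4, where blood cell markers and some endothelial markers were high, it was 2.72 ± 0.65 (edgeR adjusted p = 0.0124). The pooled counts, 40 in muscle and 8 in lymph node, give a ratio of 8.79 with an exact 95% counting interval from 4.06 to 21.7. Without muscle library 4 the ratio was 6.87, from 3.05 to 17.4. In muscle libraries 2 and 3 the summed T cell markers were 11.1 and 10.8 CPM, and in lymph node at most 7.28 CPM. The summed B cell markers were 27.4 and 36.9 CPM in these muscle libraries. They were 15.4, 33.5 and 255 CPM in lymph node libraries 1, 2 and 3. The call was lost when any 1 library other than muscle library 4 was left out (edgeR adjusted p up to 0.247), and without lymph node library 3 the log2 fold change was 4.11. The Traf1 call was also lost when muscle libraries 2 and 3 were summed (edgeR adjusted p = 0.0989).

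**Figure D3:**
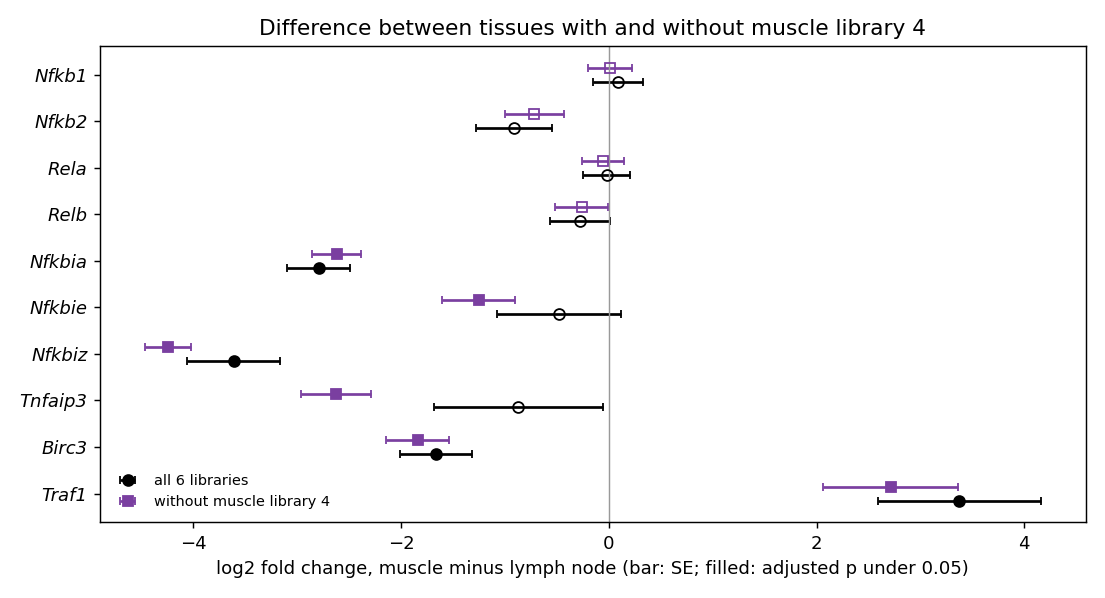
Log2 fold change of each gene, muscle minus lymph node, with its standard error, from all 6 libraries (circles) and without muscle library 4 (squares). Filled symbols passed an adjusted p of 0.05; Tnfaip3 moves from -0.87 to -2.63 and Nfkbie from -0.48 to -1.25, while the 4 subunits have unfilled symbols in both fits.

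Levels of different genes were compared per kilobase of annotated exon, so long alternative exons lower the value. In lymph node, Nfkbia ranked first at 343 ± 104 CPM per kb (SD, n = 3), followed by Nfkbiz at 88.6 ± 12.9, Birc3 at 24.1 ± 8.85 and Rela at 19.6 ± 3.10. Tnfaip3 (15.4 ± 6.79 CPM per kb), Nfkb2 (11.3 ± 2.29), Relb (8.65 ± 0.99), Nfkbie (6.73 ± 0.36), Nfkb1 (5.42 ± 0.98) and Traf1 (0.145 ± 0.106) followed. Library ranges of neighbours in this order did not overlap between Nfkbia and Nfkbiz, Nfkbiz and Birc3, Nfkb2 and Relb, Relb and Nfkbie, and Nfkb1 and Traf1. The others overlapped. In muscle Nfkbia was again first, at 47.5 ± 15.9 CPM per kb, and Rela was next at 19.4 ± 2.97. The remaining genes ran from 10.3 ± 13.6 CPM per kb for Tnfaip3, through Nfkbiz at 8.56 ± 6.59, to Traf1 at 1.89 ± 1.53. In muscle only the step from Nfkbia to Rela was free of overlap. With that order taken without muscle library 4, Nfkbia and Rela were still the highest (55.4 ± 11.5 and 18.6 ± 3.73 CPM per kb, n = 2), but Tnfaip3 was next to last at 2.497 ± 0.228 CPM per kb. Nfkbiz was then at 4.80 ± 1.44 CPM per kb and Traf1 at 1.00 ± 0.063 CPM per kb. The 10 genes together summed to 379, 351 and 626 CPM in muscle libraries 2, 3 and 4 and to 1867, 1217 and 1299 CPM in lymph node libraries. Nfkbia and Nfkbiz held at most 32.0% of that sum in a muscle library and at least 67.3% in a lymph node library.

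**Figure D4:**
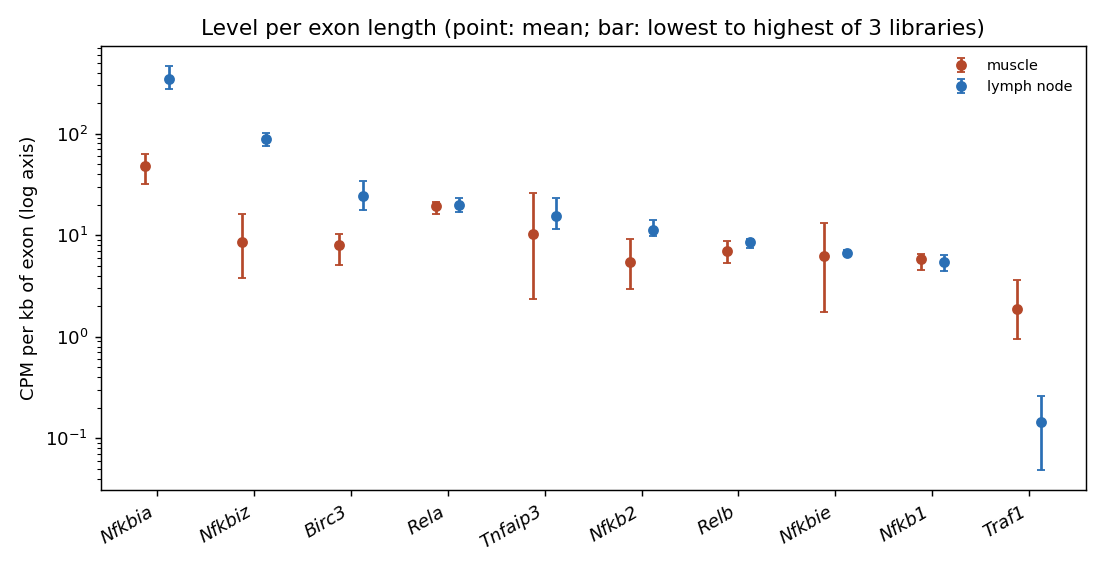
CPM per kilobase of exon for each gene on a log axis, ordered by the lymph node mean. Points are means and bars run from the lowest to the highest of 3 libraries; the tissues are farthest apart at Nfkbia, Nfkbiz and Traf1, and coincide at Rela.

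The rest of the pathway was described from 4 lists of 72 genes, of which 58 were tested. Of the 4 other Rel and IkB family genes, 3 were tested. With edgeR, DESeq2 and limma-voom 0 were called (1 with library weights), and 1 had an edgeR unadjusted p under 0.05. Rel, the subunit best known from lymphocytes, measured 11.6 and 10.8 CPM in muscle libraries 2 and 3, and 153 CPM in library 4. Its lymph node values were 29.1, 16.3 and 25.5 CPM. Its log2 fold change was 0.96 ± 0.91 with all libraries (edgeR adjusted p = 0.714) and -1.06 without muscle library 4 (edgeR adjusted p = 0.0569). Nfkbid, a nuclear IkB protein that fell below the filter, likewise had 34.9 CPM in muscle library 4 and at most 2.28 CPM in any other library. Bcl3, another nuclear IkB protein, measured 1.05, 1.54 and 16.1 CPM in muscle and 10.3, 11.6 and 14.1 CPM in lymph node. It was not called with all libraries (edgeR adjusted p = 0.384) and fell by 3.20 on the log2 scale without muscle library 4 (edgeR adjusted p = 0.0018). Rel, Nfkbid, Bcl3, Nfkbie and Tnfaip3 thus all had their highest value in muscle library 4. So did Traf1, Ikbkb, Ikbkg and Birc2, among others, and the share of all genes with this pattern was not taken. The Bcl3 value there rests on 6 counts. The part of blood cell transcripts and of the raised endothelial markers in these values was not tested. Nfkbid and Bcl3 are named after their values were seen.

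Of 24 tested genes of the IkB kinase and the receptor complexes, 2 fell in muscle, 22 were not called and the median log2 fold change was -0.21. Myd88, the adaptor of Toll-like and interleukin-1 receptors, measured 36.4, 36.1 and 21.5 CPM in muscle and 146, 140.5 and 127 CPM in lymph node. The muscle values were all far below the lymph node values (-2.05 ± 0.23, edgeR adjusted p = 0.00143). Ripk1, a kinase of the TNF receptor complex, measured 29.5, 24.6 and 34.9 CPM against 91.9, 67.9 and 73.8 CPM (-1.43 ± 0.24, edgeR adjusted p = 0.0101). The call of Ripk1 was lost when any 1 library except muscle library 4 was left out (edgeR adjusted p up to 0.0663). It was also lost when muscle libraries 2 and 3 were summed (edgeR adjusted p = 0.0563). The call of Myd88 held in all 17 alternative fits. The kinase subunits themselves were not called: the log2 fold change was 0.27 ± 0.27 for Ikbkb, 0.23 ± 0.29 for Chuk and 0.84 ± 0.27 for the scaffold Ikbkg (edgeR adjusted p = 0.734, 0.794 and 0.154). Ikbkg measured 72.8, 59.2 and 118 CPM in muscle and 40.5, 48.1 and 44.6 CPM in lymph node, without overlap. It was called higher in muscle by limma-voom with library weights (adjusted p = 0.0463), and by edgeR with muscle library 4 summed with library 2 (adjusted p = 0.0454) or with library 3 (adjusted p = 0.0255). Map3k14, the kinase of the lymphotoxin branch, was at -0.35 ± 0.39 (edgeR adjusted p = 0.761).

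Of 11 other negative regulators tested, 0 were called by edgeR or limma-voom, and 1 was higher by DESeq2 and 1 with library weights. By edgeR without muscle library 4, 1 rose, the deubiquitinase Otud7b (0.72 ± 0.20, edgeR adjusted p = 0.0249). Their median log2 fold change was 0.09, and 2 had an edgeR unadjusted p under 0.05.

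Genes known as NF-kB targets gave the most calls among the 4 lists. Of the 32 genes in the target list, 20 were tested. Among the untested genes, by CPM, Lcn2 was higher in every muscle library, and Mmp9 and Saa3 in every lymph node library, all on few counts. Lcn2 had 6, 4 and 5 counts in muscle and 4, 2 and 0 in lymph node. Mmp9 had 0, 1 and 0 against 3, 3 and 2, and Saa3 had 1, 0 and 0 against 1, 5 and 4, so no direction is read from them. Of the 20 tested, 12 fell in muscle, beside 2.86% of all tested genes. The other 8 were not called, and the median log2 fold change of the 20 was -2.40. Those that fell are named next. The 6 with the smallest p were Mmp3, Ptgs2, Il6, Irf1, Cxcl10 and Gadd45b. The others were Cxcl1, Ccl7, Icam1, Vcam1, Ier3 and C3. Of the genes that fell, Il6 and Cxcl10, for example, passed the filter only through the lymph node libraries. The list was also chosen with earlier results of these data known, so the 12 of 20 describes the list and is not a test. Ptgs2, the inducible prostaglandin synthase, measured 39.6, 44.6 and 24.2 CPM in muscle and 350.0, 376 and 407 CPM in lymph node (-3.31 ± 0.24, edgeR adjusted p = 2.21e-04). Gadd45b, a stress and survival gene, measured 8.44, 13.1 and 18.8 CPM against 77.7, 109 and 79.2 CPM (-2.89 ± 0.32, edgeR adjusted p = 0.00124). Il6, a cytokine whose induction depends on IkB-zeta, measured 2.64, 0 and 0 CPM in muscle, against 183, 156 and 125 CPM in lymph node. Without muscle library 2 its muscle count was 0. Mmp3, a matrix-degrading enzyme, measured 35.3, 35.3 and 13.4 CPM in muscle, against 1629, 1084 and 889 CPM in lymph node (-5.29 ± 0.36, edgeR adjusted p = 2e-04). Targets that were not called include the monocyte chemokine Ccl2 (-0.82, edgeR adjusted p = 0.536) and the survival gene Cflar (0.56, edgeR adjusted p = 0.198), named after their values were seen. These targets are also induced by other pathways. The summed level of 26 immediate early and dissociation-related genes differed by tissue too. It was 4061 ± 418 CPM in muscle, against 25525 ± 957 CPM in the lymph node libraries (SD, n = 3 each). In that list 19 of 25 tested genes fell, beside 2.86% of all tested genes, and 6 were not called. Fos, Jun, Junb, Egr1 and Dusp1 had the highest levels of the list in every lymph node library. The tissues overlapped for Hspa1a, Hspa1b, Jund, Klf2, Egr3 and Fosl1, named after their values were seen. They did not overlap for Dnajb1, at 64.4, 54.6 and 83.3 CPM in muscle and 508, 984 and 811 CPM in lymph node, also named afterwards. Hspa1a measured 158, 140 and 80.6 CPM in muscle libraries 2, 3 and 4. Its values were 129, 358 and 214 CPM in lymph node libraries 1, 2 and 3. The part of the genes of that list, and of the reticular cell markers (mainly Cxcl13), in the differences of Nfkbia, Nfkbiz and the targets was not tested.

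**Figure D5:**
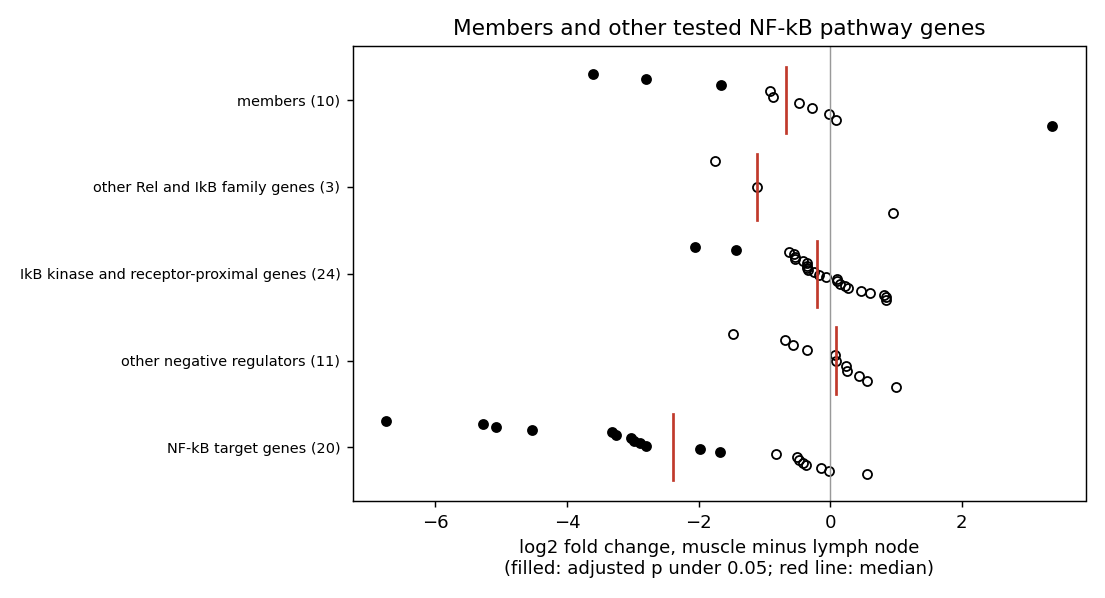
Log2 fold change, muscle minus lymph node, of the 10 members and of the tested genes of 4 pathway lists, with the number tested in brackets. Filled points passed an adjusted p of 0.05 and red lines are medians; filled points lie to the left in the target list (12 of 20), while the kinase and receptor list has 2 of 24 and the list of negative regulators none of 11.

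Genes with the profile most like a member's over the 6 libraries were ranked by Pearson r of log2 CPM among 6732 genes. With so few libraries, which differ by tissue and in depth, r describes likeness only. For Nfkbia they were Dnajc10, Fam53a, C2, Ier2 and Ifi205, with r between 0.994 and 0.999. The immediate early gene Ier2 differed by a closely similar amount to Nfkbia (-2.82 ± 0.30), whereas Dnajc10 differed by only -0.36 ± 0.17. For Nfkbiz they were Icam1, Zfp809, Sgk1, Il1rl2 and Maob, with r also between 0.994 and 0.999. Icam1, an adhesion molecule for leukocytes, measured 41.1, 52.3 and 94.1 CPM in muscle and 240.4, 214 and 239 CPM in lymph node, with muscle library 4 highest among muscle libraries as for Nfkbiz. Of its 25-base words, 16.9% occur in other genes. For Traf1 they were Rasa1, Spock2, Agmo, Banp and Cflar, with r between 0.991 and 0.995.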

How the data were processed

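Per the submitters' processing notes, STAR 2.5.4, featureCounts and mm10 were used. The deposited table holds counts per gene symbol, judged not normalised because they are whole numbers with different totals per library. Per the labels' protocols, oligo(dT)-primed cDNA was amplified, fragmented with a transposon kit and read for 25 bases from both ends. No molecular identifiers are named, so counting intervals cover counting error only. The sources used here do not give the annotation release, the strand setting or the treatment of multiply aligned reads. Lymph node columns match sample titles. Muscle columns are numbered differently from their titles and were used as 3 replicates of the group. No column was left unmatched.

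edgeR 4.0.16 (R 4.3.3) was run on tissue alone over 6 libraries: filterByExpr, TMM scaling, glmQLFit and glmQLFTest, Benjamini-Hochberg over 10823 genes. Log2 fold changes give muscle minus lymph node, and the SE is their size divided by the square root of F. CPM use the TMM library size. Replicates differed by more than sampling noise (chi-square over its degrees of freedom was at least 2.55). Alternatives were other scalings and filters, DESeq2 1.42.0, limma-voom (limma 3.58.1) without and with library weights, leaving out each library, and summing pairs of muscle libraries. The procedure was tested on simulated data.

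Positions, exon lengths and shared 25-base words come from GENCODE M21 (GRCm38, the mm10 assembly), and promoter windows from RefSeq. The rule for named genes took the 10 members, up to 6 called genes each way per pathway list by smallest p, a few kinases and relatives whatever their result, and the 5 most similar genes (at least 20 mean CPM) for 3 members. Members and lists were chosen with earlier results of these data known.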

Additional observations from a re-analysis of the deposited data

How the results depend on the processing

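Scaling by RLE, upper quartile or total counts kept 3 members lower and 1 higher. The lower count was 5 with library weights and between 2 and 5 when 1 library was left out, the 5 being without muscle library 4. It was 2 with muscle libraries 2 and 3 summed, where Birc3 lost its call, and 4 with either other sum. The higher count was 0 with the stricter filter, which removed Traf1 from testing, 0 with muscle libraries 2 and 3 summed, and 0 to 1 when 1 library was left out. Of all genes, 468 were called, 945 without a filter, 1366 with library weights, and between 142 (without lymph node library 2) and 1391 (without muscle library 4) when 1 library was left out. Summing muscle libraries 2 and 3, 2 and 4, or 3 and 4 gave 222, 1435 and 1266. The difference of the log2 ratio of Nfkbia to Rela was between -3.02 and -2.53 when 1 library was left out. The causes were not tested.

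Log2 fold changes of uncalled genes changed sign as follows. Without a filter Nfkb1 was -0.10 and Birc2 -0.10. With total-count scaling Rela was 0.058. With limma-voom Rel was -0.55 and Birc2 -0.022, and with library weights Rela was 0.0084, Rel -0.79 and Birc2 -0.12. With muscle libraries 2 and 4, or 3 and 4, summed Birc2 was -0.087 and -0.052. Leaving out 1 library gave ranges from -0.048 to 0.25 for Nfkb1, -0.14 to 0.098 for Rela, -1.25 to 0.047 for Nfkbie, -1.06 to 1.57 for Rel and -0.16 to 0.24 for Birc2. Tnfaip3 was called lower in 6 of 17 alternatives, namely without a filter, with limma-voom, with library weights, without muscle library 4 and with that library summed with 2 or 3. No paired analysis was possible because the muscle columns carry numbers that do not match the muscle titles. Depth limits Traf1 (8 lymph node counts), Nfkbie (43 muscle counts), Il6 (5 muscle counts), Bcl3 (10) and Cxcl10 (15).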
